A study of Rattus norvegicus with 20 samples.

Results

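The 5 genes described here encode fibronectin and secreted proteins that sit in or modify the matrix around cells: Fn1 (ENSRNOG00000014288), Spp1 (ENSRNOG00000043451), Sparc (ENSRNOG00000012840), Postn (ENSRNOG00000012660) and Dcn (ENSRNOG00000004554). They were set out by their Ensembl identifiers, with earlier results of these data known. All 5 were found among the 30560 genes of the count table and passed the filter on low counts, which 14034 genes passed. RNA was taken from mesenchymal stromal cells (MSCs) of rat bone marrow, which the study isolated from female Wistar rats, a single rat per batch of cells, and selected with magnetic beads for the surface proteins CD54 and CD90. The cells grew on gelatin-coated silicone of 2 kPa (soft) or 100 kPa (stiff) and were passaged once a week in medium with serum. The groups 1w2 and 1w100 were primed for 1 week on the soft or the stiff surface and 3w2 and 3w100 for 3 weeks, with 3 libraries in each group. The labels give passages, which are taken here as the weeks that the paper names. The methods also describe an initial expansion passage on the respective surface, and whether the weeks include it is not stated. The groups 5w2 and 5w100 had stayed on the soft or the stiff surface for 5 weeks. In 3w2→2w100 cells primed for 3 weeks on the soft surface spent 2 more weeks on the stiff surface, and in 3w100→2w2 the order was the opposite. These 4 groups had 2 libraries each, which makes 20 libraries in 8 groups with 16127907 to 24139128 counts per library. The identifiers could not be paired with symbols beyond these 5 genes, so markers of MSCs or of other marrow cells were not analysed here. In bulk RNA of such cultures, fewer cells of a type and less RNA per cell cannot be told apart.

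Fibronectin, the product of Fn1, is the adhesive glycoprotein that cells pull into fibrils through integrins and on which other matrix proteins are laid down. Matricellular proteins are secreted into the matrix and modulate how cells attach and respond to it without bearing much of the load themselves. Periostin (Postn) binds integrins and helps to cross-link collagen, osteopontin (Spp1) is an acidic phosphoprotein of bone that binds integrins and CD44, and SPARC, also called osteonectin, binds collagen and calcium. Decorin, the product of Dcn, is a small leucine-rich proteoglycan that decorates collagen fibrils and binds transforming growth factor β. Myofibroblasts, the contractile cells into which MSCs can turn on stiff surfaces, are known for high fibronectin and periostin.

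RefSeq promoters were found for 3 of the 5 genes, those of Spp1, Postn and Sparc, and they are printed because Spp1 and Postn varied widely over the libraries while Sparc varied least. Each window covers 250 bases before and 50 bases after the annotated start in the build GRCr8, read along the gene's strand. The letters of 5 short motifs were searched on both strands, and their matches stand in capitals.
Spp1, chr14:5619755-5620054, minus strand: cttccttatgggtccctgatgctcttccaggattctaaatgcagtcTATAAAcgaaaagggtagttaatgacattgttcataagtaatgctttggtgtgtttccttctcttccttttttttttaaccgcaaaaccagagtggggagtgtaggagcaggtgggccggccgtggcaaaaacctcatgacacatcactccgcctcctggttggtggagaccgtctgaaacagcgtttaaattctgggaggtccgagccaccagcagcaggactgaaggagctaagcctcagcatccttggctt
Postn, chr2:140677811-140678110, plus strand: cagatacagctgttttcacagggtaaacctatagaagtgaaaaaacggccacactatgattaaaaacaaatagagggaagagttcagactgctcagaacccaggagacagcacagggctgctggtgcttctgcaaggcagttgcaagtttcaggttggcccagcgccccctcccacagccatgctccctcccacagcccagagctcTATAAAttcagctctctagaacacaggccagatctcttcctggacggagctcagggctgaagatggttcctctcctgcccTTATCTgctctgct
Sparc, chr10:40038767-40039066, minus strand: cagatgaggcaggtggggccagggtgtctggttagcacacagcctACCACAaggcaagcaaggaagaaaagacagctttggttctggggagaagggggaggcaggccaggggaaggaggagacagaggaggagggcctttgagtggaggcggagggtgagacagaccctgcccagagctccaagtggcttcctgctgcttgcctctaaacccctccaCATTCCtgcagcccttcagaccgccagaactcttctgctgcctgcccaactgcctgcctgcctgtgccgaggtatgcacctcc
The TATA box letters TATAAA occurred in the Postn window, from base -44 to base -39 before the start, and in the Spp1 window, from base -204 to base -199. They occurred in 14.2% of the 33469 windows of 300 bases in the same RefSeq table. The GATA letters AGATAA were matched in the Postn window on the opposite strand from base 37 to base 42 after the start, and 11.6% of all windows held a match. The Sparc window held the TEAD letters GGAATG on the opposite strand, from base -33 to base -28, and the RUNX core letters ACCACA from base -205 to base -200. Matches to these occurred in 14.2% and 17.3% of all windows. The AP-1 letters TGANTCA, which 7.33% of all windows held, had no match in the 3 windows. No match overlapped another, and a match is a description of the letters and not a site of binding.

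The 5 genes took a large and variable part of the reads. Together they received 2.76% to 7.0% of all counts of a library, with a median of 4.25%. Fn1 alone received 1.45% to 3.63% and ranked among the 5 genes with the most counts in all 20 libraries, and Sparc received 0.955% to 1.48% and ranked between 5 and 7. These ranks are of counts, which depend also on the length of a transcript. Postn took as little as 0.026% and as much as 1.62% of a library.

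**Figure D1:**
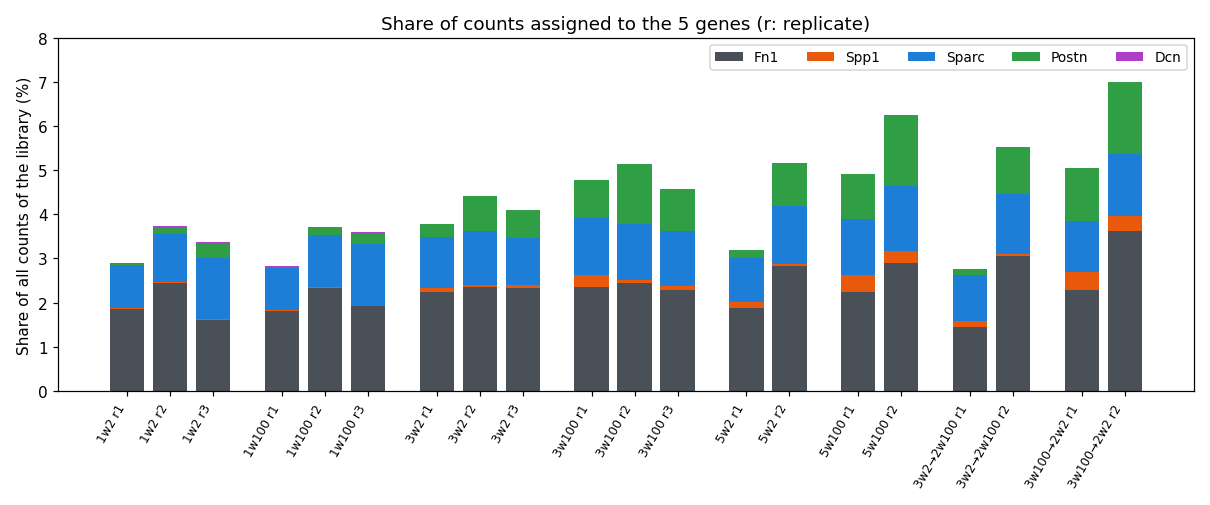
Stacked bars give the share of all counts (%) that each of the 5 genes received in each of the 20 libraries, ordered by group (r, replicate). The sum was lowest in the 3w2→2w100 library of replicate 1, at 2.76%, and highest in the 3w100→2w2 library of replicate 2, at 7.0%, and the bars of Postn grow most from 1 week to later times.

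The levels are given from here on in CPM, the counts of a gene relative to the size of its library, which was scaled by TMM factors, so that libraries can be compared. From its lowest to its highest library Sparc varied 1.77-fold, Fn1 2.46-fold, Spp1 42.3-fold, Postn 72.0-fold and Dcn 183-fold. In edgeR's quasi-likelihood test of any difference among the 8 groups, Spp1 (adjusted p = 0.000443) and Dcn (adjusted p = 0.00213) were called. The test called 21% of all genes tested. It did not call Postn (edgeR adjusted p = 0.141), Fn1 (0.538) or Sparc (0.782). DESeq2 (adjusted p = 0.00435) and edgeR with the replicate number as a block (adjusted p = 0.00574) did call Postn.

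**Figure D2:**
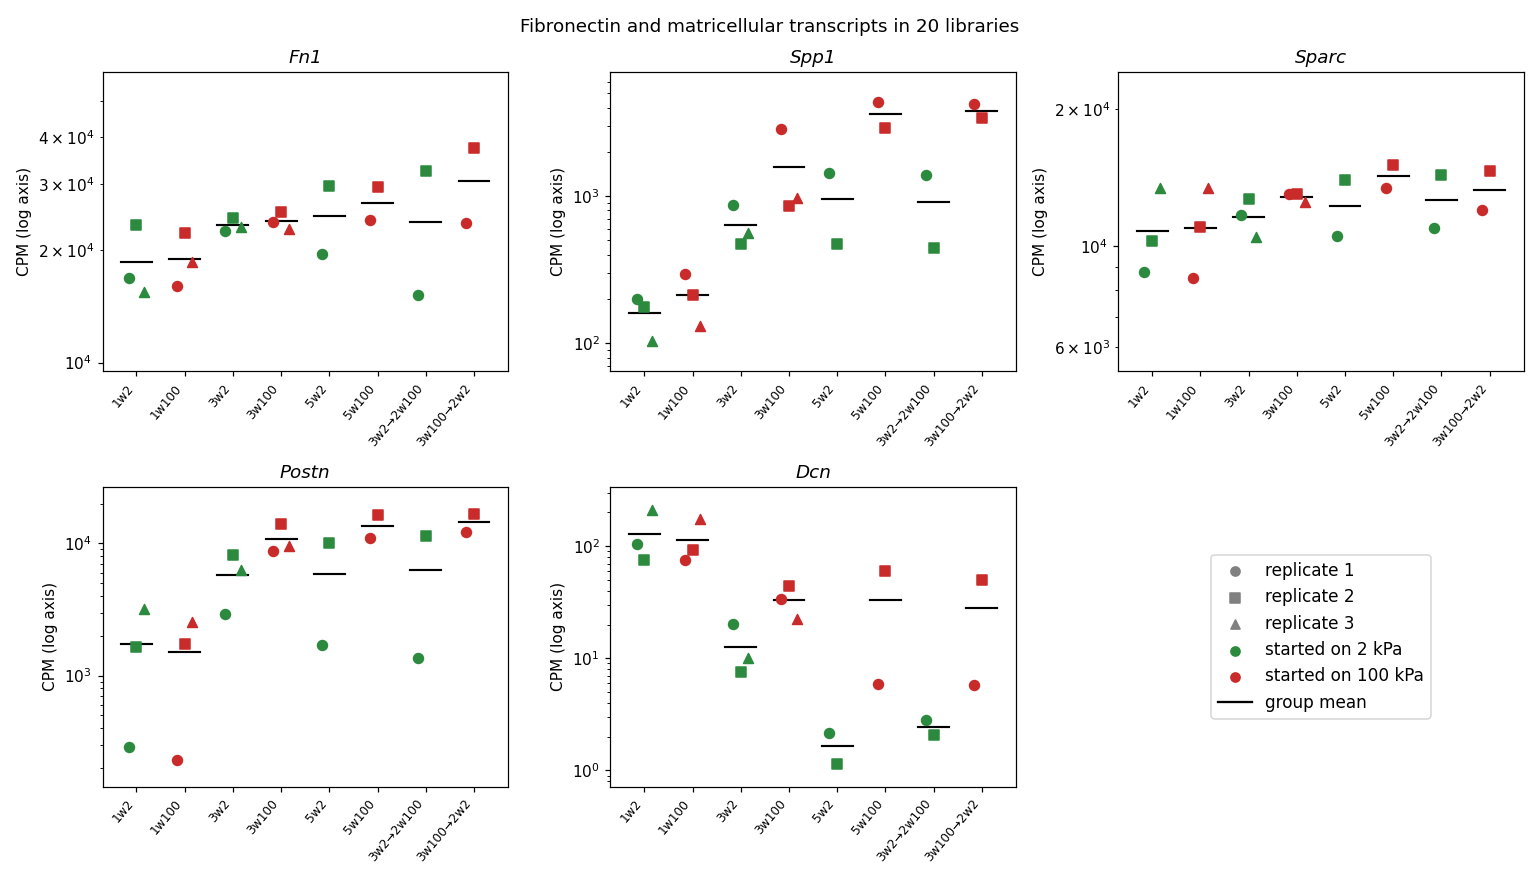
Points give the CPM (log axis) of the 5 genes in the 20 libraries by group, with the replicate number as the symbol, the starting surface as the colour and the group mean as a line. Fn1 and Sparc stayed within 2.46-fold and 1.77-fold over all libraries, Spp1 and Postn lay higher at 3 and 5 weeks than at 1 week on the stiff surface, and Dcn was highest at 1 week.

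Fn1, the fibronectin gene, was read at a high level in every group. Its group means ran from 18520 ± 4164 CPM (SD, n = 3) in 1w2 and 18880 ± 3092 (n = 3) in 1w100 to 26710 ± 3818 (n = 2) in 5w100 and 30480 ± 9693 (n = 2) in 3w100→2w2. The 3w2 libraries held 22480, 24270 and 23000 CPM and the 3w100 libraries 23750, 25200 and 22790, so the surfaces overlapped at 3 weeks. At 5 weeks the spread within a group was as wide as that between groups, with 19490 and 29600 CPM in 5w2, 24010 and 29410 in 5w100, 15160 and 32420 in 3w2→2w100, and 23620 and 37330 in 3w100→2w2. Of the 7 neighbours in the order of group means, 6 overlapped in their libraries. The estimated log2 fold changes in 13 comparisons of groups, which leave out the changes of the stiffness effect with time, lay between -0.17 and 0.34 and none was called by edgeR (lowest adjusted p = 0.511, lowest unadjusted p = 0.243). Between 5w100 and 5w2 the log2 fold change of Fn1 was 0.12, with a 95% interval from -0.61 to 0.85. That interval rests on 2 libraries in each group and a spread shared with the other groups. Leaving out 1 library at a time gave estimates from -0.15 to 0.45. Changes within the interval could not be told from the spread.

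Sparc, whose protein binds collagen and is abundant in bone, was the steadiest of the 5. The means of the 8 groups ran from 10820 ± 2377 CPM (SD, n = 3) in 1w2 to 14250 ± 1146 (n = 2) in 5w100, and all 7 neighbours in that order overlapped. The 3w100 libraries were the closest to each other, with 13000, 13010 and 12520 CPM. At 1 week the libraries of the same number were nearly equal on the 2 surfaces, with 8775 and 8504 CPM in replicate 1, 10250 and 10990 in replicate 2 and 13430 and 13410 in replicate 3. The number thus separated the libraries at 1 week more than the surface did. The log2 fold changes in the 13 comparisons lay between -0.17 and 0.23, with no call by edgeR (lowest adjusted p = 0.562, lowest unadjusted p = 0.290). Between 5w100 and 5w2 the log2 fold change was 0.22, with a 95% interval from -0.32 to 0.76.

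Spp1, the osteopontin gene, rose from 1 to 3 weeks on both surfaces. The 1w2 libraries held 199.3, 175.8 and 103.3 CPM and the 3w2 libraries 874.7, 470.4 and 557.4, with no overlap between the groups. On the stiff surface the 1w100 libraries held 295.7, 212.4 and 130.8 CPM and the 3w100 libraries 2870, 853.6 and 974.6, again with no overlap. The log2 fold change was 1.99 ± 0.56 (SE) on the soft surface (edgeR adjusted p = 0.0409) and 2.88 ± 0.58 on the stiff surface (edgeR adjusted p = 0.00587). Between 1w2 and 3w2 edgeR called 8.03% of all genes, 3.73% higher and 4.3% lower, and between 1w100 and 3w100 it called 8.41%, 3.85% higher and 4.56% lower. Libraries of the later group all lay above those of the earlier group in 14.3% of genes on the soft surface and in 15.8% on the stiff surface. The soft-surface call of Spp1 was not stable to leaving out 1 library: it was lost without any 1 of the 6 libraries compared and without 1w100 replicate 2 or 3w100→2w2 replicate 1, with adjusted p up to 0.149. The stiff-surface call was kept whichever of the 20 libraries was left out. Whether the rise differed between surfaces was tested as the change of the stiffness effect from 1 to 3 weeks, which was 0.89 with a 95% interval from -0.74 to 2.51 (edgeR adjusted p = 1.00).

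Spp1 differed by the surface of the first 3 weeks. At 5 weeks the soft-primed libraries held 1431 and 470.5 CPM in 5w2 and 1386 and 445.8 in 3w2→2w100, and the stiff-primed libraries held 4367 and 2890 in 5w100 and 4220 and 3379 in 3w100→2w2. Every stiff-primed library lay above every soft-primed one, and within a priming surface the kept and the switched libraries of one number differed little. Stiff-primed against soft-primed cells, averaged over the current surface, gave a log2 fold change of 1.99 ± 0.48 (SE), which is 3.98-fold (edgeR adjusted p = 0.0187). In this comparison edgeR called 9.75% of all genes, with 6.64% of all genes called as higher, and all stiff-primed libraries lay above all soft-primed ones in 10.7%.

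The call of Spp1 for the priming surface was lost in some of the other fits. An edgeR fit of only the 8 libraries of these groups gave the same log2 fold change of 1.99 without a call (adjusted p = 0.106). Kept and switched libraries of one priming surface and number may descend from the same culture, and summing them to 1 library also gave 1.99 without a call (edgeR adjusted p = 0.160). With those sums and the replicate number as a block it was called (2.16, edgeR adjusted p = 0.0238). It was also lost in edgeR without 5w2 replicate 2 (adjusted p = 0.0733), 3w2→2w100 replicate 2 (0.0594) or 3w100→2w2 replicate 2 (0.0534).

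The single comparisons behind it were not called without a block. Between 5w100 and 5w2 the log2 fold change of Spp1 was 1.93 ± 0.68 (SE; edgeR adjusted p = 0.192). It was -1.99 ± 0.68 between 3w2→2w100 and 5w100, both on the stiff surface at harvest (adjusted p = 0.200), and 2.00 ± 0.68 between 3w100→2w2 and 5w2, both on the soft surface (adjusted p = 0.197). The last 2 share a 5-week control group each with the first. Without the block edgeR called 0.264%, 0.057% and 0.178% of all genes in these 3 comparisons and none of the 5 genes. In each, 2 of the 5, Spp1 and Dcn, had an unadjusted p below 0.05, as did 15.4%, 14.1% and 13.5% of all genes. Under the replicate block Spp1 was called in all 3, with edgeR adjusted p of 0.0183, 0.0260 and 0.0183. That fit called 3.55%, 2.55% and 2.52% of all genes. The pairing it assumes was weak between these groups: same-numbered libraries deviated from their group means with r of 0.178, 0.245 and 0.168. The ratio of 5w100 to 5w2 was 3.05 in replicate 1 and 6.14 in replicate 2, and that of 3w100→2w2 to 3w2→2w100 was 3.05 and 7.58.

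**Figure D3:**
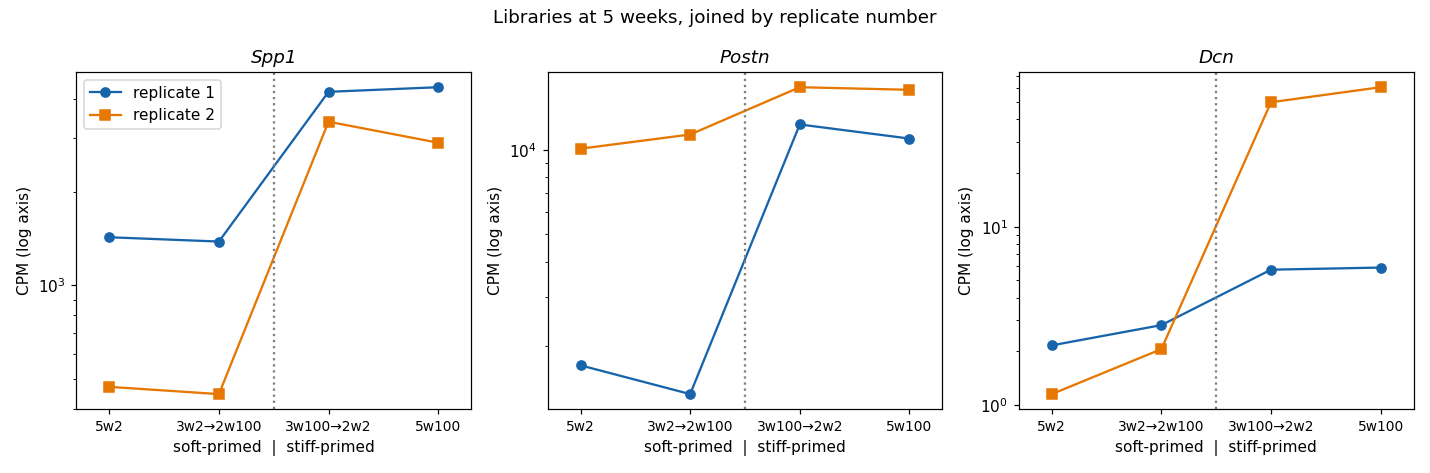
Points give the CPM (log axis) of Spp1, Postn and Dcn in the 8 libraries at 5 weeks, and lines join the libraries of one replicate number. Soft-primed groups stand left of the dotted line and stiff-primed groups right of it: Spp1 was higher after stiff priming in both replicates, Postn differed 6.40-fold between 5w100 and 5w2 in replicate 1 and 1.62-fold in replicate 2, and Dcn differed 2.73-fold in replicate 1 and 52.7-fold in replicate 2.

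Before 5 weeks the surface made no called difference in Spp1. At 1 week the log2 fold change of 1w100 against 1w2 was 0.42, with a 95% interval from -0.73 to 1.57, although the stiff library was the higher one in each of the 3 numbers. At 3 weeks it was 1.3 ± 0.55 (SE; edgeR unadjusted p = 0.0305, adjusted p = 0.806), and 3w100 replicate 1 lay far above the others. Without that library it was 0.53, and the change of the stiffness effect from 1 to 3 weeks was 0.11 in place of 0.89. edgeR without a block called none of the 5 genes and no other gene at 1 or at 3 weeks (0% in both). An unadjusted p below 0.05 was found for 0 of the 5 and 0.385% of all genes at 1 week, and for 1 of the 5, Spp1, and 6.15% of all genes at 3 weeks. DESeq2 and the replicate block also called none of the 5 at either time, and at 3 weeks they called 11 genes and 1 gene in all.

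Postn, the periostin gene, had low and scattered levels at 1 week and high levels later. The 1w2 libraries held 287.6, 1657 and 3212 CPM and the 1w100 libraries 231.4, 1748 and 2554, so the 2 surfaces overlapped and the spread within each group was about as wide as the range over both. The 3w2 libraries held 2921, 8120 and 6300 CPM and the 3w100 libraries 8711, 13970 and 9565. The 3 libraries of 3w100 all lay above those of 3w2, which was so in 7.78% of genes, and Dcn was the other of the 5 to show this. Between 3w2 and 3w100 its log2 fold change was 0.89 ± 0.93 (SE; edgeR adjusted p = 0.912).

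From 1 to 3 weeks the log2 fold change of Postn was 1.75 ± 0.95 (SE) on the soft surface (edgeR adjusted p = 0.300) and 2.83 ± 0.98 on the stiff surface (edgeR adjusted p = 0.0945), so edgeR called neither. A replicate block in edgeR gave calls for both, with adjusted p of 0.0443 on the soft and 0.00462 on the stiff surface. With that block 12.8% and 13.3% of all genes were called. The numbers met the criterion for paired libraries at 1 week. At 3 weeks they did not, since r was 0.084 in replicate 2, against 0.389 and 0.465 in replicates 1 and 3. DESeq2, which called 9.76% of the genes it tested between 1w100 and 3w100, called Postn there with a log2 fold change of 2.81 and an adjusted p of 0.00845. Fn1, Spp1 and Postn were the members whose 3w100 libraries all lay above their 1w100 libraries, as was so in 15.8% of all genes. For Fn1 that log2 fold change was 0.34 and was not called (edgeR adjusted p = 0.511).

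At 5 weeks the soft-primed libraries of Postn disagreed with each other. The 5w2 libraries held 1712 and 10080 CPM, 5.89-fold apart, and the 3w2→2w100 libraries 1353 and 11320, 8.36-fold apart. The stiff-primed libraries were all high, with 10950 and 16320 CPM in 5w100 and 12290 and 16670 in 3w100→2w2. The lowest stiff-primed library lay below the highest soft-primed one, so the priming surfaces overlapped. For the priming surface its log2 fold change was 1.20 ± 0.81 (SE), with a 95% interval from -0.52 to 2.92 (edgeR adjusted p = 0.366). With the replicate number as a block it was 1.78 ± 0.55 (edgeR adjusted p = 0.0428), in a fit that called 16.4% of all genes. Summed by culture pair with the block, it was not called (edgeR adjusted p = 0.225). Between 5w100 and 5w2 the log2 fold change of Postn was 1.21 ± 1.14 (SE; edgeR adjusted p = 0.647), and it was 0.44 without 5w2 replicate 1 and 2.99 without 5w2 replicate 2.

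The replicate number moved with Postn and Spp1 through the whole series. Replicate 1 had the lowest Postn of its group in 8 of 8 groups, and the highest Spp1 in 8 of 8. Over all genes tested, replicate 1 was the lowest in all 8 groups for 1.15% and the highest for 1.23%. Fn1 and Sparc were lowest in replicate 1 in 6 of 8 groups each, and Dcn was lowest in 3 and highest in 3. At 3 weeks r between same-numbered libraries was 0.389, 0.084 and 0.465 in replicates 1, 2 and 3. Replicate 2 thus fell below the criterion of 0.1 for paired libraries. At 5 weeks r across priming surfaces met it but was also low, from 0.168 to 0.245. The part that a shared rat may have in this order was not tested.

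Dcn, the decorin gene, fell with time on the soft surface. The 1w2 libraries held 104.0, 74.53 and 210.1 CPM and the 3w2 libraries 20.10, 7.554 and 10.15, with no overlap, which in this direction was seen in 14.2% of genes. The log2 fold change was -3.35 ± 0.81 (SE; edgeR adjusted p = 0.0199). At 5 weeks the 5w2 libraries held 2.158 and 1.150 CPM, from 50 and 24 counts. The further log2 change from 3w2 to 5w2 was -2.92 ± 1.05 (SE; edgeR adjusted p = 0.455, unadjusted p = 0.0138), and edgeR called 0% of genes in that comparison. The call between 1w2 and 3w2 was lost in edgeR without 1w2 replicate 3 (adjusted p = 0.0637), 3w2 replicate 2 (0.0900) or 3w2 replicate 3 (0.0573).

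On the stiff surface the decline of Dcn was smaller in these libraries and ended differently in the 2 replicates. The 1w100 libraries held 75.97, 92.02 and 174.3 CPM and the 3w100 libraries 33.51, 43.89 and 22.37, again without overlap, as in 15% of genes. That is a log2 fold change of -1.78 ± 0.76 (SE; edgeR adjusted p = 0.177). From 3w100 to 5w100, where edgeR called 0% of genes, Dcn went to 5.895 CPM in replicate 1 and 60.58 in replicate 2, and the log2 fold change of the group was 0.00 with a 95% interval from -1.77 to 1.78. The difference between surfaces in the step from 1 to 3 weeks was 1.57, with a 95% interval from -0.68 to 3.83 (edgeR adjusted p = 1.00), so a smaller decline on the stiff surface was not established.

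Dcn was higher after stiff priming than after soft priming, at low levels. The soft-primed libraries held 2.158 and 1.150 CPM in 5w2 and 2.803 and 2.056 in 3w2→2w100, and the stiff-primed libraries 5.895 and 60.58 in 5w100 and 5.737 and 49.90 in 3w100→2w2. All 4 stiff-primed libraries lay above all 4 soft-primed ones, but replicate 1 lay close to them and replicate 2 far above. The log2 fold change was 3.91 ± 0.78 (SE), with a 95% interval from 2.25 to 5.57 (edgeR adjusted p = 0.00756). Leaving out 5w100 replicate 2 gave 2.67 (edgeR adjusted p = 0.0564) and leaving out 3w100→2w2 replicate 2 gave 2.77 (adjusted p = 0.0539). In edgeR the call was lost in the fit of only the 8 libraries (adjusted p = 0.110), and in the sums by culture pair without (0.0752) and with the block (0.0635).

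Between 5w100 and 5w2 the log2 fold change of Dcn was 4.31 ± 1.12 (SE; edgeR adjusted p = 0.0879), the largest of the 5 genes in that comparison. It was called without 5w100 replicate 1 (5.18, edgeR adjusted p = 0.0353) and fell to 1.82 without 5w100 replicate 2 (adjusted p = 0.834). Spp1, Postn and Dcn were the 3 members whose 5w100 libraries both lay above the 5w2 libraries, as 21.5% of all genes did. Dcn differed by a log2 value of -3.77 ± 1.09 between 3w2→2w100 and 5w100 (edgeR adjusted p = 0.133) and of 4.05 ± 1.11 between 3w100→2w2 and 5w2 (edgeR adjusted p = 0.123). The former was -4.63 without 5w100 replicate 1 (edgeR adjusted p = 0.0460) and -1.27 without 5w100 replicate 2 (0.998), and the latter was 1.78 without 3w100→2w2 replicate 2 (1.00), so replicate 2 carried most of the log2 fold change of Dcn in all 3. DESeq2 called Dcn in all 3, with adjusted p of 0.00198, 0.0113 and 0.00492, among 4.13%, 3.19% and 3.01% of the genes it tested. edgeR's block fit, by contrast, did not call Dcn in any of the 3 (adjusted p = 0.0698, 0.113 and 0.0943).

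Neither the current surface nor the last 2 weeks gave a call for any of the 5 genes. For the surface at harvest, averaged over the priming surface, the log2 fold changes and 95% intervals were -0.12 (-0.64 to 0.40) for Fn1, -0.06 (-1.05 to 0.93) for Spp1 and 0.07 (-0.31 to 0.46) for Sparc. They were 0.01 (-1.69 to 1.71) for Postn and 0.40 (-1.20 to 2.01) for Dcn. The intervals of Fn1 and Sparc leave out a change of more than 1 on the log2 scale, and those of Spp1, Postn and Dcn do not. In the fit with the replicate block the interval of Spp1 was narrower, from -0.64 to 0.47. Those of Postn (-1.18 to 1.06) and Dcn (-1.33 to 2.11) still held a change of more than 1. The pairing assumed by that fit was weak across priming surfaces, with r from 0.168 to 0.245. Across weeks r ran from -0.209 to 0.448, so such a change in Spp1 was not excluded. edgeR called 0% of all genes for the current surface, and 0 of the 5 genes had an unadjusted p below 0.05 or were called by DESeq2. The same held for soft-primed cells moved to the stiff surface against those kept (3w2→2w100 against 5w2, 0% called) and for stiff-primed cells moved to the soft surface (3w100→2w2 against 5w100, 0% called). In the former the log2 fold change was -0.05 for Spp1, 0.10 for Postn and 0.54 for Dcn, and in the latter 0.07, 0.09 and -0.26. An unadjusted p below 0.05 was found for 0.812% of all genes for the current surface. It was found for 0.371% in 3w2→2w100 against 5w2 and 0.62% in 3w100→2w2 against 5w100. With kept and switched libraries of one number as a block, edgeR called 12, 2 and 4 genes in these comparisons, and 0 of the 5.

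**Figure D4:**
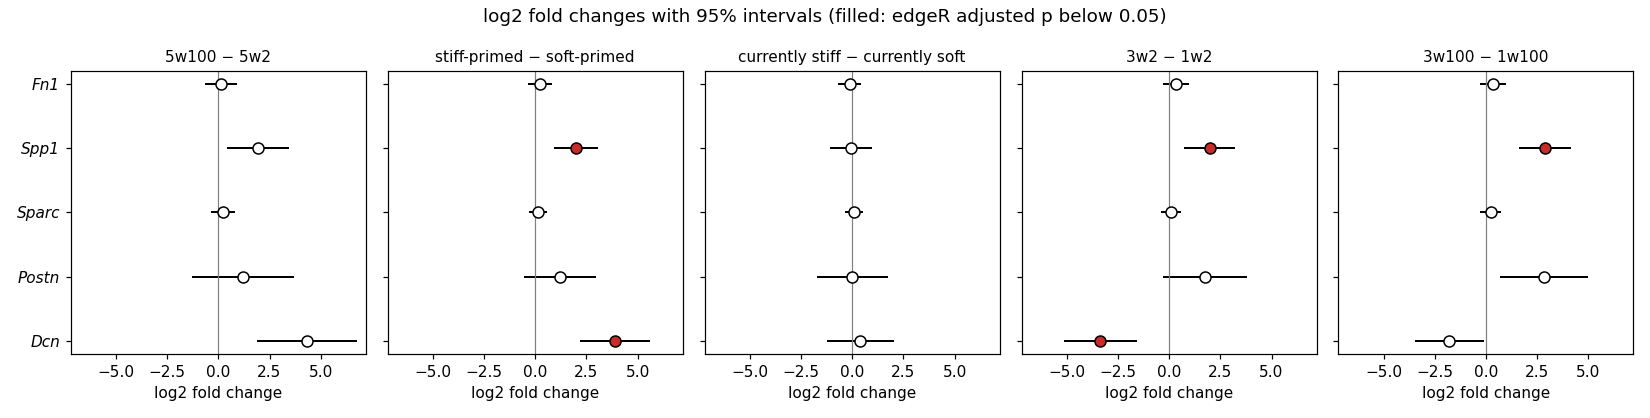
Points give the log2 fold change of each gene (x axis) in 5 comparisons (panels), bars the 95% interval from edgeR's fit, and filled points an adjusted p below 0.05. Spp1 (1.99) and Dcn (3.91) were called for the priming surface, Spp1 rose from 1 to 3 weeks on both surfaces, Dcn fell on the soft one (-3.35), and no point is filled for the current surface. The calls for the priming surface and those between 1w2 and 3w2 were lost in some of the other fits.

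The stiffness effect changed between 1 and 5 weeks by a log2 value of 1.51 ± 0.85 (SE) in Spp1, 1.4 ± 1.46 in Postn and 4.50 ± 1.32 in Dcn. None was called (edgeR adjusted p = 0.788, 0.906 and 0.499), and edgeR called 0% of genes for this change and 0% for that from 1 to 3 weeks. Dcn alone of the 5 had an unadjusted p below 0.05 (0.00387) for the change from 1 to 5 weeks, as did 7.0% of all genes, and DESeq2 called none of the 5 in either. Single libraries moved these changes widely: that from 1 to 5 weeks lay between 0.92 and 2.53 in Spp1 (without 5w2 replicate 2 and without 5w2 replicate 1). It lay between 0.57 (without 1w2 replicate 3) and 3.18 (without 5w2 replicate 2) in Postn, and was 2.01 in Dcn without 5w100 replicate 2. From 3 to 5 weeks the log2 fold change of Spp1 was 0.58 ± 0.59 on the soft surface and 1.21 ± 0.59 on the stiff surface, and that of Postn was 0.03 ± 1.03 and 0.34 ± 1.02, with no call in edgeR or DESeq2.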

How the data were processed

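The data are polyA RNA-seq of 20 libraries of rat MSCs. The authors trimmed reads with TrimGalore!, mapped them to mRatBN7.2 (rn7) with HISAT2 and counted them with FeatureCounts, and the deposited values are raw counts per Ensembl gene. Tool versions, the strand setting and the rule for multi-mapped reads were not found in the labels or the methods, so the counts of genes that overlap or have close copies could be split. The 5 genes, the motifs and the comparisons were chosen with earlier results of these data known. The rule named the 5 genes in every comparison and the 3 genes most like each of them. A list of receptors and other matricellular genes and a list of cell type markers, both set out by symbol, were not used here, because 0 of the 30560 identifiers could be matched in the RefSeq table (GRCr8). The symbols of the 5 genes are those given with the choice and could not be checked against that table.

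Groups and replicate numbers were taken from the labels, with passages taken as weeks. The tests used edgeR 4.0.16 under R 4.3.3. Libraries were scaled by TMM, genes were kept by filterByExpr (minimum count 10, total 15), and all 8 groups entered a single quasi-likelihood model without a block, with Benjamini-Hochberg adjusted p below 0.05 called over all 14034 genes. Standard errors and 95% intervals are from that fit, and log2 CPM adds a prior count of 2. Totals were 16127907 to 24139128 counts. According to the methods, replicates are cells of different rats. Libraries of one group differed beyond sampling noise (chi-square per degree of freedom from 18.6 to 98.5). Same-numbered libraries deviated from their group means together at 1 week (r from 0.626 to 0.777) and 5 weeks (0.168 to 0.802). By the criterion of 0.1 for every pair they did not at 3 weeks (0.084 to 0.465). At 5 weeks r was 0.760 and 0.802 between kept and switched libraries of one priming surface. Across priming surfaces it was only 0.168 to 0.245. Across weeks, which the block also spans, it ran from -0.209 to 0.448. This pairing comes from the data, since no source says that a number marks one rat. Alternatives were DESeq2 1.42.0, RLE factors, library totals only, no filter, the replicate block, only the groups compared, culture pairs as a block and each library left out. The sums by culture pair were added after the values were seen. The fits were tested on simulated counts drawn independently for each library, which hold no effect shared by a rat or a culture. Promoters are RefSeq sequences of GRCr8.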

Additional observations from a re-analysis of the deposited data

How the results depend on the processing

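Each 5-week group has only 2 libraries, and markers of cell types were not analysed here. Of 337 log2 fold changes refitted under the alternatives other than leaving out a library, 313 kept their direction and side of the threshold. The others were 6 that lost a call, 11 that gained one and 7 that changed sign, all 7 from uncalled values near 0. These cover Spp1, Postn and Dcn in every comparison that a setting fitted. Fn1 and Sparc are covered only in 5w100 against 5w2, the priming surface, 3w2 against 1w2 and 3w100 against 1w100. With library totals only, the median of all genes moved by -0.103 between 1w2 and 3w2 and by -0.121 between 1w100 and 3w100. Unless a value says otherwise, the cause of a changed call was not tested.

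DESeq2 called 1 of the 5 genes in 5w100 against 5w2, 1 in 3w2→2w100 against 5w100, 1 in 3w100→2w2 against 5w2 and 2 in 3w100 against 1w100. A replicate block gave, in these same comparisons, 1, 1, 1 and 2 calls. The genes differed in the 5-week comparisons, where DESeq2 called Dcn and the block called Spp1. In 3w100 against 1w100 both called Spp1 and Postn. The block changed no other call beyond those given with the results. With only the groups compared, fitted on fewer libraries, the priming surface had 0 calls and 3w100 against 1w100 had 2 (Dcn, edgeR adjusted p = 0.0308). For the priming surface, sums by culture pair gave 0 calls alone and 1 call once the replicate block was added. Library totals only gave 1 call between 3w2 and 1w2, where Spp1 was lost (edgeR adjusted p = 0.0507).

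The sign of Postn for the current surface changed to -0.01 with library totals only, -0.06 with the replicate block and -0.08 with the culture pair as block, which also gave -0.08 for 3w2→2w100 against 5w2. With library totals only Postn was -0.03 for 5w2 against 3w2 and Dcn -0.01 for 5w100 against 3w100, where the replicate block gave -0.10.

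Leaving out 1 library at a time, where a group of 1 library took its spread from the other groups, the number called ranged from 0 to 1 for 5w100 against 5w2 and for 3w2→2w100 against 5w100, from 0 to 2 for the priming surface and from 0 to 2 for 3w2 against 1w2, which had 1 call without 1w2 replicate 1, 1w2 replicate 2, 1w100 replicate 2, 3w2 replicate 1 or 3w100→2w2 replicate 1 and 0 without 1w2 replicate 3, 3w2 replicate 2 or 3w2 replicate 3. Log2 fold changes were followed in every comparison for Spp1, Postn and Dcn. Fn1 and Sparc were followed only for 5w100 against 5w2, the priming surface, 3w2 against 1w2 and 3w100 against 1w100. Sign changes of Fn1 and Sparc in other comparisons are therefore not listed. Among those followed, the log2 fold changes that changed sign ranged as follows. For 1w100 against 1w2 they were -0.80 to 0.64 for Postn and -0.63 to 0.36 for Dcn. For 5w100 against 5w2 they were -0.15 to 0.45 for Fn1. For the current surface they were -0.58 to 0.45 for Spp1, -1.10 to 0.90 for Postn and -0.84 to 1.54 for Dcn. For 3w2→2w100 against 5w2 they were -1.09 to 0.96 for Spp1 and -2.12 to 1.89 for Postn. For 3w100→2w2 against 5w100 they were -0.20 to 0.40 for Spp1, -0.17 to 0.40 for Postn and -2.53 to 2.24 for Dcn. For 3w2 against 1w2 they were -0.03 to 0.29 for Sparc. For 5w2 against 3w2 they were -0.43 to 1.17 for Spp1 and -1.75 to 0.80 for Postn. For 5w100 against 3w100 they were -2.50 to 0.86 for Dcn.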

Other observations

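Among 12233 other genes with a mean of at least 1 CPM, the gene most like each of the 5 by Pearson's r of log2 CPM over the 20 libraries reached r = 0.925 for Fn1, 0.955 for Spp1, 0.936 for Sparc, 0.953 for Postn and 0.968 for Dcn. The libraries share groups and replicate numbers, so these values are a description. An r above 0.9 was reached by 3 genes for Fn1, 28 for Spp1, 3 for Sparc, 21 for Postn and 66 for Dcn. The identifiers nearest to Spp1 and Postn were ENSRNOG00000008182 and ENSRNOG00000013867, and the nearest to Dcn was ENSRNOG00000004610, and their symbols were not matched here. The third nearest gene had r = 0.912 for Fn1, 0.936 for Spp1, 0.921 for Sparc, 0.927 for Postn and 0.956 for Dcn.

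Among the 5 genes themselves Sparc and Postn ran most closely together over the 20 libraries (r = 0.87), followed by Fn1 and Postn (0.78) and Fn1 and Sparc (0.65). Sparc stood at place 46 among all genes ranked by their r with Postn, and Postn at place 12 for Sparc, although Sparc varied 1.77-fold and Postn 72.0-fold. Spp1 had r = 0.57 with Postn and 0.45 with Fn1. Dcn had negative r with the other 4, from -0.15 with Sparc to -0.44 with Spp1.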
